A study of Mus musculus with 30 samples.

Results

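The genes described here are 10 genes of the IL-1 family and the inflammasome, chosen by symbol: *Il1a*, *Il1b*, *Il18*, *Il1rn*, *Il1r2*, *Il1r1*, *Nlrp3*, *Pycard*, *Casp1* and *Casp4*. All 10 were found in both count tables, among 13353 genes measured in bone marrow (BM) and 17059 measured in adipose tissue macrophages (ATMs), and none was lost to the filter on low counts. The rule names symbols and sets no limit on a measured value, but the genes were chosen with earlier results of these data known. Each was compared across 5 groups of 3 libraries within each tissue. The sample titles number the libraries of a group and do not say whether each came from a separate mouse.

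The study asked how obesity, and drugs given against it or against IL-17A, act on blood formation by cells with an activating SHP2 mutation. Recipients were lethally irradiated with 700 and then 400 cGy and were given equal numbers of CD45.2+ marrow cells from Shp2E76K/+;LysM-Cre+ mice and CD45.1+ Boy/J competitor cells. One group, WT, was lean recipients, for which no drug is named. The other 4 groups were leptin-deficient Ob/Ob recipients, treated for 30 days from 8 weeks after transplantation with vehicle (Vehicle), with beinaglutide at 3 mg/kg subcutaneously (GLP-1R agonist), with 200 μg per mouse of an anti-IL-17A antibody intraperitoneally 3 times a week (Anti-IL-17A), or with both (Combo). Every sample carries the strain C57BL/6J in its labels, with an age of about 12 to 14 weeks, and mice of both sexes were used. The labels do not say to which stage that age refers, and with transplantation, the 8 weeks after it and the 30 days of treatment it may not be the age at sampling of the Ob/Ob groups. Beinaglutide activates the receptor of GLP-1, a gut hormone that lowers blood glucose and appetite, and IL-17A is a cytokine made by T cells. Which donor cells the lean recipients of the ATM samples received is not certain from the sources, so Vehicle vs WT in ATMs may differ in donor as well as in recipient. LysM-Cre acts in myeloid cells, and irradiated hosts keep resistant macrophages and stromal cells of their own. ATMs were F4/80+ cells sorted from visceral fat.

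IL-1α (*Il1a*) and IL-1β (*Il1b*) are cytokines that signal through the receptor IL-1R1 (*Il1r1*). The decoy receptor IL-1R2 (*Il1r2*) binds them without signaling, and the product of *Il1rn* blocks IL-1R1 as an antagonist. IL-1β and IL-18 (*Il18*) are made as inactive precursors that caspase-1 (*Casp1*) cuts within an inflammasome, where a sensor such as NLRP3 recruits it through the adaptor ASC (*Pycard*). Caspase-11 (*Casp4* in the mouse) responds to lipopolysaccharide inside the cell. Neutrophils, monocytes and macrophages are known sources of most of these transcripts, and stromal and endothelial cells of *Il1r1*. RNA levels do not show how much precursor was cut or released.

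Counts on genes ranged from 31086184 to 39925495 per library in BM (median 34797411) and from 24876074 to 45300263 in ATMs (median 31854058). The biological coefficient of variation was 3.51% in BM and 32.5% in ATMs, so smaller differences could be told from the spread in BM. It is the spread between libraries of a group. If such libraries shared mice, it and the p-values do not measure the spread between mice. In BM, WT replicate 1 stood apart from the other 2 WT libraries, by a chi-square per gene of 34.8 and 26.6 against at most 4.21 in any other pair of BM replicates. *Xist*, transcribed in female cells, reached 182 to 193 CPM in BM of Vehicle and 101 to 105 in BM of Combo against at most 3.26 in the other groups, and 30.1 to 46.2 and 31.4 to 38.1 CPM in ATMs against at most 1.22. Summed Y-linked genes were at 64.8 to 66.9 CPM in BM of Vehicle and 11.1 to 12.8 in Combo, against 148 to 167 in WT, 145 to 153 with the GLP-1R agonist and 136 to 137 with the antibody. In ATMs they reached at most 28.9 CPM in Vehicle and Combo, against at least 159 in the other groups. Libraries of Vehicle and Combo thus held transcripts of both kinds, in different proportions, and the sex of the cells and the group cannot be told apart. Cell content also differed between ATM groups. The summed level of 9 neutrophil markers was 21568 to 22845 CPM in Vehicle and 12554 to 12894 in Combo, but 268 to 290.0 in WT, 195 to 208 with the GLP-1R agonist and 419.9 to 438 with the antibody. *Adgre1*, the gene of F4/80, was at 30.2 to 52.4 CPM in Vehicle against 192 to 229.6 in WT, 375 to 403 with the GLP-1R agonist, 864 to 894 with the antibody and 395 to 405 in Combo. The 10 monocyte and macrophage markers, *Adgre1* among them, summed to 2220 to 2398 CPM in ATMs of Vehicle and 1771 to 1876 in WT. Of these 10, 4 were called higher in Vehicle than in WT and 5 lower. Pancreatic acinar markers reached 1133 to 1165 CPM in ATMs of Combo, against at most 27.6 in the other groups. Markers of epididymis and seminal vesicle were at 2998 to 3145 CPM in ATMs of WT, 2125 to 2213 with the GLP-1R agonist and 559 to 572 with the antibody, against 0 to 0.812 in Vehicle and 3.97 to 4.69 in Combo. Their part in the results in ATMs was not tested. In bulk RNA, fewer cells of a type and less RNA per cell cannot be told apart.

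The promoters of 4 of the genes are shown because each holds a motif that was searched for, and because these genes differed widely between groups or, for *Il1b*, in opposite directions between tissues. Each is a RefSeq window (GRCm38.p6) from 250 bases before the transcription start to 50 after it, written 5′ to 3′ on the strand of the gene with the motif in capitals. *Il1a* (minus strand, chr2:129309923-129310222) and *Il1b* (minus strand, chr2:129371090-129371389) have a TATA box, at -32 to -27 and -31 to -26 from the start.
Il1a: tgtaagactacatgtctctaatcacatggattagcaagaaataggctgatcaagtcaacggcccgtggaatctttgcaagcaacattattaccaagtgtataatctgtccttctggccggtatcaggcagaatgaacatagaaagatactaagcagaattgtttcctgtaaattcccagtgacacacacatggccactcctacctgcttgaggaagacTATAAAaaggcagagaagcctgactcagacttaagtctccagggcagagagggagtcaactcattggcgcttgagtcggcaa
Il1b: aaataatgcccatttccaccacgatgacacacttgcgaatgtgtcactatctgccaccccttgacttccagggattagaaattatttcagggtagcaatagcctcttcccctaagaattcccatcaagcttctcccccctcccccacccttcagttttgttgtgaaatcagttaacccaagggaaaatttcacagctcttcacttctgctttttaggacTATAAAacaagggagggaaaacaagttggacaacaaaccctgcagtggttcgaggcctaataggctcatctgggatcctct
*Casp4* (plus strand, chr9:5308599-5308898, the first of 2 listed starts) has an NF-kB motif at -92 to -83. *Il1r2* (plus strand, chr1:40085843-40086142, inside the annotated span of the gene) has a GAS motif, the kind bound by STAT factors, at -111 to -103.
Casp4: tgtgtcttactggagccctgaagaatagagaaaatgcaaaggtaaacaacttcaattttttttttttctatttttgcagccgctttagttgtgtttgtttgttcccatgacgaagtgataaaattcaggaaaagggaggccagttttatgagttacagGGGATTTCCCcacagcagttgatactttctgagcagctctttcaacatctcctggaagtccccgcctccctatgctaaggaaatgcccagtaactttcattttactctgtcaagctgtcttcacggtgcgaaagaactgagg
Il1r2: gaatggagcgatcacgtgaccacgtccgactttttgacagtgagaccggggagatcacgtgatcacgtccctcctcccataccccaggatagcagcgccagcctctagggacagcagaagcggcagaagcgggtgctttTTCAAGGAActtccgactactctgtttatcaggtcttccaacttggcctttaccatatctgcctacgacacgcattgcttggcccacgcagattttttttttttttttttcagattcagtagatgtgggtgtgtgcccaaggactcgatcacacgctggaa
Searched on both strands of 32851 such windows, the NF-kB motif was in 1.2%, the TATA box (TATAAA) in 13.6%, the GAS motif (TTCNNNGAA) in 8.3%, a C/EBP motif (TTGCNNAA) in 10.8% and the interferon-stimulated response element in 3.44%. Among the 15 windows of the 10 genes, *Il1r1* and *Pycard* held the C/EBP letters, *Il18* and 1 of 3 *Il1rn* windows the TATA letters on the other strand, and the 3 windows of *Nlrp3* and *Casp1* none of the letters. Such matches describe letters and do not show that a factor binds.

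Vehicle vs WT set obese against lean recipients. These groups also differed in *Xist* and Y-linked transcripts and perhaps, in ATMs, in donor, and no vehicle dosing is named for WT. In BM, *Il1r2*, *Casp4* and *Il1a* rose and *Il1b* and *Nlrp3* fell, 5 of the 10 genes, and also 5 without WT replicate 1. A gene was called changed when edgeR's quasi-likelihood test gave a Benjamini-Hochberg adjusted p under 0.05 together with a log2 fold change (log2FC) beyond 1 in size, and 19.5% of all BM genes were called (9.44% up, 10% down). Without the fold limit all 10 passed, as did 76.6% of all genes, and the libraries of the groups did not overlap for any of the 10, as for 75.8% of all genes. In ATMs 8 of the 10 rose and 0 fell, among 35.4% of all genes called (12.5% up, 22.9% down), and the groups did not overlap for 9 of the 10 (62.9% of all genes). The 2 not called in ATMs were *Il1r1* and *Il18*. The median log2FC of the 10 was 0.65 in BM, beside -0.02 over all genes, and 2.17 in ATMs, beside -0.21.

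**Figure D1:**
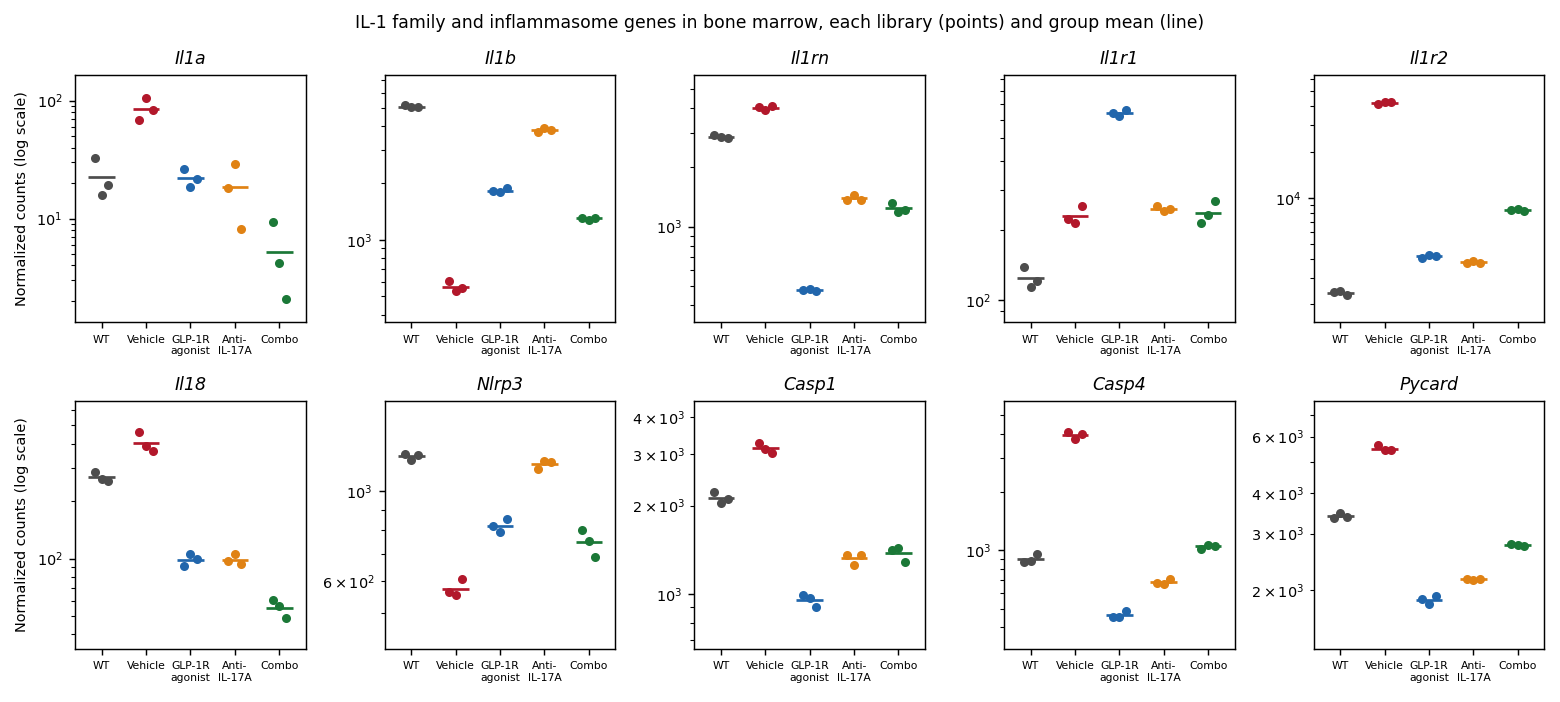
Normalized counts of the 10 genes in the 15 BM libraries, on a log scale, with the 5 groups on the horizontal axis; points are libraries and lines are means of 3. *Il1b* and *Nlrp3* are lowest in Vehicle (means 564 and 575), where *Il1r2* is highest (42221).

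*Il1b* (chromosome 2, 129364570 to 129371139, minus strand) moved in opposite directions in the tissues. In BM its normalized counts were 5166, 5031 and 5034 in WT and 604, 532 and 555 in Vehicle. They were 1807, 1794 and 1872 with the GLP-1R agonist, 3722, 3906 and 3834 with the antibody and 1312, 1277 and 1305 in Combo. No group overlapped another, and the order from high to low was WT, Anti-IL-17A, GLP-1R agonist, Combo, Vehicle. *Il1b* fell in Vehicle (log2FC -3.17, SE 0.0439, adjusted p = 1.47e-40). Against Vehicle it rose 3.24-fold with the GLP-1R agonist, 6.78-fold with the antibody and 2.30-fold in Combo (adjusted p = 5.13e-30, 2.34e-38 and 3.71e-24 by edgeR). Combo stayed below WT (log2FC -1.97) and below the antibody alone (-1.56), while its difference from the GLP-1R agonist alone (-0.49) was under the fold limit. Neutrophil markers in BM summed to 117833 to 119679 CPM in Vehicle and 102920.1 to 110769.8 in WT, and monocyte and macrophage markers to 3418 to 3589 and 1329.8 to 1349. Single markers did not all follow these sums. Of 9 neutrophil markers tested 6 were lower in Vehicle than in WT and 3 higher, and 2 were called lower (without the fold limit 6 lower and 2 higher, median log2FC -0.35, all genes -0.02). Of 10 monocyte and macrophage markers 4 were called higher and 2 lower. The part of cell content in the *Il1b* result was not tested.

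In ATMs, *Il1b* had 2684, 2371 and 2807 normalized counts in WT and 17077, 15737 and 17621 in Vehicle, a 6.41-fold rise (log2FC 2.68, SE 0.0732, adjusted p = 5.11e-14). The GLP-1R agonist gave 3593, 3404 and 3389.6, the antibody 3025, 3403 and 3462 and Combo 11231, 12082 and 11461. Both single agents overlapped each other and lay above every WT library, the antibody by a log2FC of 0.33 (adjusted p = 0.00139 by edgeR). Combo lay below every Vehicle library and above all the others. The falls from Vehicle were called for the GLP-1R agonist (log2FC -2.28) and the antibody (-2.35). Combo differed from Vehicle by -0.54, under the fold limit (adjusted p = 8.38e-06 by edgeR). Combo was higher than the GLP-1R agonist alone (1.74, adjusted p = 2.34e-11 by edgeR) and the antibody alone (1.81, adjusted p = 2.86e-11). Vehicle and Combo were also the groups with high neutrophil markers, whose part in the result was not tested. The antisense gene *Il1bos* covers 1.31% of the *Il1b* exons, and counting took no account of strand.

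*Il1a* (chromosome 2, 129299610 to 129309972, minus strand) encodes the form of IL-1 that is active without being cut. It was scarce in BM, at 32.9, 15.9 and 19.4 normalized counts in WT and 68.0, 105 and 82.8 in Vehicle. With the GLP-1R agonist it had 26.2, 18.4 and 21.5, with the antibody 18.3, 28.8 and 8.16 and in Combo 9.26, 4.24 and 2.09. Every Vehicle library was above every other library, the levels of WT, GLP-1R agonist and Anti-IL-17A overlapped, and those of Anti-IL-17A and Combo did too. *Il1a* rose in Vehicle (log2FC 1.88, SE 0.315, adjusted p = 1.37e-06) and fell from Vehicle with the GLP-1R agonist (log2FC -1.95), the antibody (-2.21) and Combo (-4.00, SE 0.417, adjusted p = 3.97e-11). The Combo values rest on 2 to 9 counts per library. Without Combo replicate 1 the log2FC of Combo moved from -4.00 to -4.71 against Vehicle, from -2.12 to -2.82 against WT, from -2.05 to -2.75 against the GLP-1R agonist and from -1.80 to -2.50 against the antibody. The call against the antibody was lost without Anti-IL-17A replicate 2 (log2FC -1.30, adjusted p = 0.0664 by edgeR). Of the *Il1a* exons, 11.2% is shared with *Gm14023*, and reads there counted for both.

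In ATMs *Il1a* was more abundant. WT had 358, 345 and 372 normalized counts, Vehicle 1833, 1239 and 1302, the GLP-1R agonist 259.8, 573 and 442, the antibody 123, 222 and 223 and Combo 1444, 1446 and 1310.4. Vehicle and Combo overlapped and lay above every other library. These groups also had the high neutrophil markers and *Xist* levels, whose part in the *Il1a* result was not tested. *Il1a* rose 4.07-fold in Vehicle (log2FC 2.02, SE 0.268, adjusted p = 1.02e-05) and fell from Vehicle with the GLP-1R agonist (log2FC -1.78) and the antibody (-2.95). Combo did not differ from Vehicle beyond the spread (log2FC -0.06, SE 0.255, adjusted p = 0.905), and was above the GLP-1R agonist alone (1.72) and the antibody alone (2.89).

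*Il18* (chromosome 9, 50554827 to 50581840, plus strand), the precursor of a cytokine that drives interferon-γ, was lowest in Combo in BM. There it had 284, 263 and 256 normalized counts in WT, 463, 389 and 366 in Vehicle, 90.9, 106 and 99.1 with the GLP-1R agonist, 97.4, 105 and 93.4 with the antibody and 60.7, 56.1 and 49.0 in Combo. Only the single agents overlapped each other. Vehicle was 1.52-fold above WT, under the fold limit, and *Il18* fell from Vehicle 4.11-fold with the GLP-1R agonist, 4.11-fold with the antibody and 7.34-fold in Combo (log2FC -2.87, SE 0.134, adjusted p = 5.67e-22). Combo was 4.84-fold below WT.

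Libraries of a group lay further apart for *Il18* in ATMs. They had 675, 559.6 and 569.8 normalized counts in WT, 679.9, 338 and 339.8 in Vehicle, 202, 88.1 and 139 with the GLP-1R agonist, 251, 220.4 and 216 with the antibody and 237, 247 and 307 in Combo. Vehicle overlapped WT through its replicate 1 (log2FC -0.41, SE 0.304, adjusted p = 0.266). *Il18* fell from Vehicle with the GLP-1R agonist (log2FC -1.66, SE 0.316, adjusted p = 0.000378). All 3 treated groups were below WT, by a log2FC of -2.07 with the GLP-1R agonist, -1.39 with the antibody and -1.19 in Combo (adjusted p = 9.79e-05, 0.00215 and 0.00569 by edgeR). The antibody differed from Vehicle by -0.98, and this was called without Vehicle replicate 2 (-1.15), without Vehicle replicate 3 (-1.16) or without Anti-IL-17A replicate 1 (-1.05). Combo exceeded the GLP-1R agonist by 0.88, called without GLP-1R agonist replicate 1 (1.21).

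The decoy receptor gene *Il1r2* (chromosome 1, 40074079 to 40125231, plus strand) was highest in Vehicle in both tissues. In BM it had 2414, 2464 and 2299.8 normalized counts in WT and 41399.9, 42894 and 42369 in Vehicle, a 17.6-fold rise (log2FC 4.14, SE 0.0286, adjusted p = 1.33e-50). With the GLP-1R agonist it had 4063, 4196 and 4165, with the antibody 3731, 3855 and 3725 and in Combo 8272, 8424 and 8239.8. No groups overlapped, and each treated group lay between WT and Vehicle. The fall from Vehicle was 10.2-fold with the GLP-1R agonist, 11.2-fold with the antibody and 5.08-fold in Combo (adjusted p = 7.86e-49, 4.64e-49 and 2.92e-44 by edgeR). Combo was above the antibody alone (log2FC 1.14) and the GLP-1R agonist alone (1.00). The last value sat at the fold limit and was not called with DESeq2, with DESeq2's size factors, with the compared groups alone, with at least 10 counts in every library (0.98), without GLP-1R agonist replicate 1 (0.99) or without Combo replicate 2.

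In ATMs *Il1r2* rose more in Vehicle than any other of the 10, from 797, 667 and 746 normalized counts in WT to 22829.6, 22878 and 22674, or 30.9-fold (log2FC 4.95, SE 0.0920, adjusted p = 4.94e-16). The values were 1523, 1241 and 1333 with the GLP-1R agonist, 1190.1, 1213 and 1208 with the antibody and 5252, 4746 and 4441 in Combo. No groups overlapped. The single agents were 16.7-fold and 18.9-fold below Vehicle and Combo 4.74-fold, and Combo stayed above the GLP-1R agonist alone (log2FC 1.82) and the antibody alone (2.00). Neutrophils transcribe this gene, and the summed neutrophil markers were highest in Vehicle and next in Combo. Between these 2 groups the 9 single markers were split, with 4 higher in Combo (1 called) and 5 lower (4 called). The part of neutrophils was not tested.

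*Il1rn* (chromosome 2, 24336853 to 24351494, plus strand), the antagonist, was also highest in Vehicle in both tissues. BM libraries had 2917, 2838 and 2818 normalized counts in WT, 4031, 3915 and 4087 in Vehicle, 476, 483 and 473 with the GLP-1R agonist, 1369, 1440.2 and 1359 with the antibody and 1317, 1181 and 1215 in Combo. No groups overlapped, and the GLP-1R agonist alone had the lowest level. Vehicle was 1.40-fold above WT, under the fold limit, and *Il1rn* fell from Vehicle 8.40-fold with the GLP-1R agonist, 2.89-fold with the antibody and 3.24-fold in Combo (adjusted p = 3.01e-39, 2.34e-30 and 1.16e-31 by edgeR). Combo was below WT (log2FC -1.21) and above the GLP-1R agonist alone (1.37).

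In ATMs *Il1rn* rose 13.7-fold, from 1415, 1543 and 1471 normalized counts in WT to 20109.8, 20124 and 20291 in Vehicle (log2FC 3.77, SE 0.0679, adjusted p = 3.6e-16). The treated groups had 6061, 5781 and 6571 with the GLP-1R agonist, 6686, 7435 and 7527 with the antibody and 5876, 5957 and 5388 in Combo. They lay close together between WT and Vehicle. Each fell from Vehicle (log2FC -1.72, -1.48 and -1.81), and Combo was 3.89-fold above WT. Where *Il1a*, *Il1b* and *Il1r2* were higher in Combo than with either agent, *Il1rn* differed by -0.10 from the GLP-1R agonist (adjusted p = 0.23 by edgeR) and by -0.33 from the antibody. The difference from the antibody was under the fold limit, but every Combo library lay below every antibody library.

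*Il1r1* (chromosome 1, 40225080 to 40317257, plus strand), the signaling receptor, was highest with the GLP-1R agonist alone in both tissues. In BM it had 139, 114 and 121 normalized counts in WT, 223, 215 and 256 in Vehicle, 642, 623 and 663 with the GLP-1R agonist, 255, 242 and 247 with the antibody and 215, 233 and 268 in Combo. The GLP-1R agonist stood alone above the rest, WT below, and the other 3 groups overlapped. The rise over Vehicle was 2.78-fold (log2FC 1.48, SE 0.0938, adjusted p = 1.68e-17), and Combo was lower than the GLP-1R agonist alone (log2FC -1.43). Combo did not differ from Vehicle beyond the spread (0.05, adjusted p = 0.689 by edgeR). It exceeded WT by 0.93, called without WT replicate 1 (1.02), the library that stood apart, or without Combo replicate 1 (1.004).

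In ATMs *Il1r1* had 2501, 2381 and 2482 normalized counts in WT, 1997, 2036 and 1989 in Vehicle, 9712, 9094 and 9563 with the GLP-1R agonist, 2729, 2373 and 2591 with the antibody and 2917, 1852 and 2058 in Combo. The GLP-1R agonist was 4.71-fold above Vehicle (log2FC 2.24, SE 0.126, adjusted p = 4.67e-10), Combo was below it (log2FC -2.05), and no called difference separated the other 4 groups in the comparisons made. Stromal and endothelial markers summed to 20819.9 to 21251 CPM with the GLP-1R agonist, against 13829 to 14597 in WT, 6591 to 6884 in Vehicle, 13164 to 13391 with the antibody and 11666 to 11987 in Combo, but the single markers were split. With the GLP-1R agonist 5 of 10 were higher than in Vehicle and 5 lower, 4 called higher and 3 called lower (median log2FC 0.28, all genes 0.19). In BM the same sum was 70.1 to 72.4 CPM with the GLP-1R agonist and 79.7 to 81.0 in Vehicle, with 5 markers higher and 5 lower, 2 called higher and 3 called lower. The part of these cells in the *Il1r1* results was not tested.

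*Nlrp3* (chromosome 11, 59541568 to 59566956, plus strand), the sensor, stood in the same order of groups as *Il1b* in BM. It had 1235, 1197 and 1229.6 normalized counts in WT, 564, 553 and 608 in Vehicle, 821, 793 and 852 with the GLP-1R agonist, 1136, 1187 and 1183 with the antibody and 800.4, 753 and 689.6 in Combo. The GLP-1R agonist and Combo overlapped. *Nlrp3* fell in Vehicle (log2FC -1.09, SE 0.0600, adjusted p = 1.55e-19) and rose with the antibody (log2FC 1.03), a call lost without Vehicle replicate 2 (0.997). *Nlrp3* was also higher in every GLP-1R agonist and Combo library than in every Vehicle library, under the fold limit (Combo log2FC 0.38, adjusted p = 1.21e-06 by edgeR). In ATMs it had 965, 1167 and 1321 in WT, 3145, 2849 and 2875 in Vehicle, 2431, 2081 and 2859.9 with the GLP-1R agonist, 1568, 1628 and 1794 with the antibody and 2032, 1909.7 and 2187 in Combo. It rose 2.57-fold in Vehicle (log2FC 1.36, SE 0.127, adjusted p = 2.02e-07). No treated group was called against Vehicle in ATMs, at log2FC -0.27 with the GLP-1R agonist, -0.83 with the antibody and -0.53 in Combo.

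**Figure D2:**
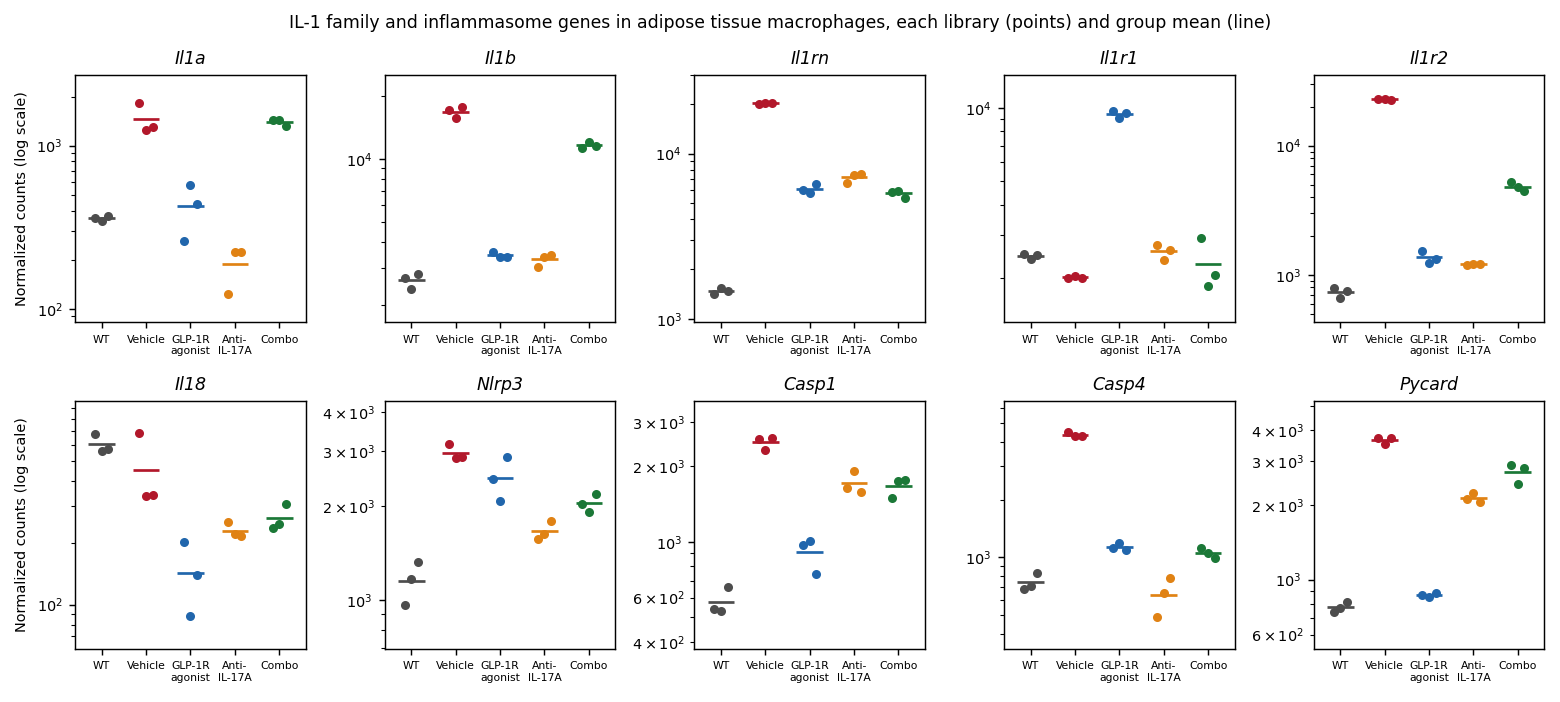
Normalized counts of the same genes in the 15 ATM libraries, on a log scale, by group; points are libraries and lines are means of 3. *Il1b* is high in Vehicle and Combo (means 16812 and 11591), *Il1r2* highest in Vehicle (22794) and *Il1r1* highest with the GLP-1R agonist (9457).

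*Casp4* (chromosome 9, 5308828 to 5336783, plus strand), which encodes caspase-11, rose in Vehicle and fell with every treatment in both tissues. In BM it had 865, 879 and 955 normalized counts in WT, 4072, 3769 and 3962 in Vehicle, 451, 452 and 484 with the GLP-1R agonist, 681, 671 and 711 with the antibody and 1021, 1064 and 1058 in Combo. No groups overlapped. The rise in Vehicle was 4.37-fold (log2FC 2.13, SE 0.0478, adjusted p = 3.66e-33), and the falls were 8.51-fold, 5.72-fold and 3.76-fold. In ATMs it had 684, 708 and 830.3 in WT, 4507, 4287 and 4293 in Vehicle, 1114, 1195 and 1094 with the GLP-1R agonist, 487, 652 and 777 with the antibody and 1114, 1059 and 988 in Combo. The rise in Vehicle was 5.89-fold (log2FC 2.56, SE 0.142, adjusted p = 3.61e-10), and the falls 3.85-fold, 6.83-fold and 4.14-fold. The antibody overlapped WT there, and Combo did not differ from WT beyond the fold limit (log2FC 0.51).

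*Casp1* (chromosome 9, 5298517 to 5307265, plus strand), the protease that cuts both precursors, had 2229, 2044 and 2101 normalized counts in BM of WT, 3281, 3109 and 3033 in Vehicle, 995, 973 and 904 with the GLP-1R agonist, 1357, 1254 and 1358 with the antibody and 1411, 1439 and 1283 in Combo. Every treated library was below every WT and Vehicle library. Vehicle was 1.48-fold above WT, under the fold limit, and *Casp1* fell from Vehicle 3.28-fold, 2.37-fold and 2.28-fold in the order GLP-1R agonist, antibody and Combo. In ATMs it had 541, 529 and 662 in WT, 2566, 2319 and 2591 in Vehicle, 969, 1007 and 748 with the GLP-1R agonist, 1645, 1910.2 and 1584 with the antibody and 1501, 1748 and 1766 in Combo. It rose 4.32-fold in Vehicle (log2FC 2.11, SE 0.137, adjusted p = 2.39e-09). The fall from Vehicle was called with the GLP-1R agonist (log2FC -1.46) and was under the limit with the antibody (-0.54) and in Combo (-0.58).

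*Pycard* (chromosome 7, 127989708 to 127993867, minus strand), the adaptor, had 3346, 3474 and 3369 normalized counts in BM of WT, 5633, 5444 and 5445 in Vehicle, 1879.7, 1814 and 1918 with the GLP-1R agonist, 2174, 2151 and 2165 with the antibody and 2790.2, 2759.6 and 2749 in Combo. No groups overlapped. It fell from Vehicle with the GLP-1R agonist (log2FC -1.56) and the antibody (-1.35). Combo differed by -0.99, just under the limit, which was passed with DESeq2 (-1.01), without Vehicle replicate 2 or without Vehicle replicate 3 (-1.05). In ATMs *Pycard* had 743, 769 and 813 in WT, 3739, 3529.9 and 3718 in Vehicle, 870.0, 855 and 881 with the GLP-1R agonist, 2118, 2235 and 2050.1 with the antibody and 2902, 2438 and 2825 in Combo. It rose 4.73-fold in Vehicle (log2FC 2.24, SE 0.0857, adjusted p = 2.66e-12) and fell 4.22-fold with the GLP-1R agonist, while Combo was 3.51-fold above WT and was not called against Vehicle (-0.43). Of its exons, 12.8% is shared with *Gm45205*.

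Counted over the 10 genes, each treatment was set against Vehicle. In BM the GLP-1R agonist changed 9, with 2 up and 7 down, where 16.7% of all genes were called (7.6% up, 9.08% down). The antibody changed 9 in BM, again 2 up and 7 down (16.1% of all genes, 7.65% up and 8.46% down). Combo changed 7 in BM, 1 up and 6 down (17.7%, 6.58% up and 11.1% down). *Il1b* was up in each of these, with *Il1r1* up with the GLP-1R agonist and *Nlrp3* with the antibody. In ATMs the GLP-1R agonist changed 9, 1 up and 8 down (31.8%, 20.8% up and 10.9% down), and the antibody 5, all down (35.5%, 22.4% up and 13.1% down). Combo changed 3 in ATMs, *Il1rn*, *Il1r2* and *Casp4*, all down (26.4%, 14.1% up and 12.2% down). The median log2FC of the 10 against Vehicle in ATMs was -1.75 with the GLP-1R agonist, -1.23 with the antibody and -0.56 in Combo, beside 0.19, 0.17 and 0.00 over all genes. These comparisons share the Vehicle libraries.

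Combo was also set against WT and against each agent. In BM it differed from WT in 5 of the 10, *Il1r2* up and *Il1a*, *Il1b*, *Il1rn* and *Il18* down (14.3% of all genes, 4.4% up and 9.93% down). It differed from the GLP-1R agonist in 5, *Il1rn*, *Il1r2* and *Casp4* up and *Il1a* and *Il1r1* down (13.2%, 4.59% up and 8.57% down), and from the antibody in 3, *Il1r2* up and *Il1a* and *Il1b* down (5.67%, 1.04% up and 4.63% down). In ATMs it was above WT in 6, *Il1a*, *Il1b*, *Il1rn*, *Il1r2*, *Casp1* and *Pycard*, and below it in *Il18* (21.6%, 7.08% up and 14.5% down). It was above the GLP-1R agonist in *Il1a*, *Il1b*, *Il1r2* and *Pycard* and below it in *Il1r1* (18.7%, 5.38% up and 13.4% down). It was above the antibody in *Il1a*, *Il1b* and *Il1r2* and below it in 0 (14.2%, 3.73% up and 10.5% down). ATMs of Combo also had higher neutrophil markers and *Xist* than those of either agent alone, whose part was not tested. The fold limit decided many of these counts, since without it the share of all genes passing was 73.3%, 71.4% and 52.5% in BM for Combo vs WT, the GLP-1R agonist and the antibody, and in ATMs 58.1% for the antibody vs Vehicle, 48.7% for Combo vs Vehicle and 28.6% for Combo vs the antibody.

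**Figure D3:**
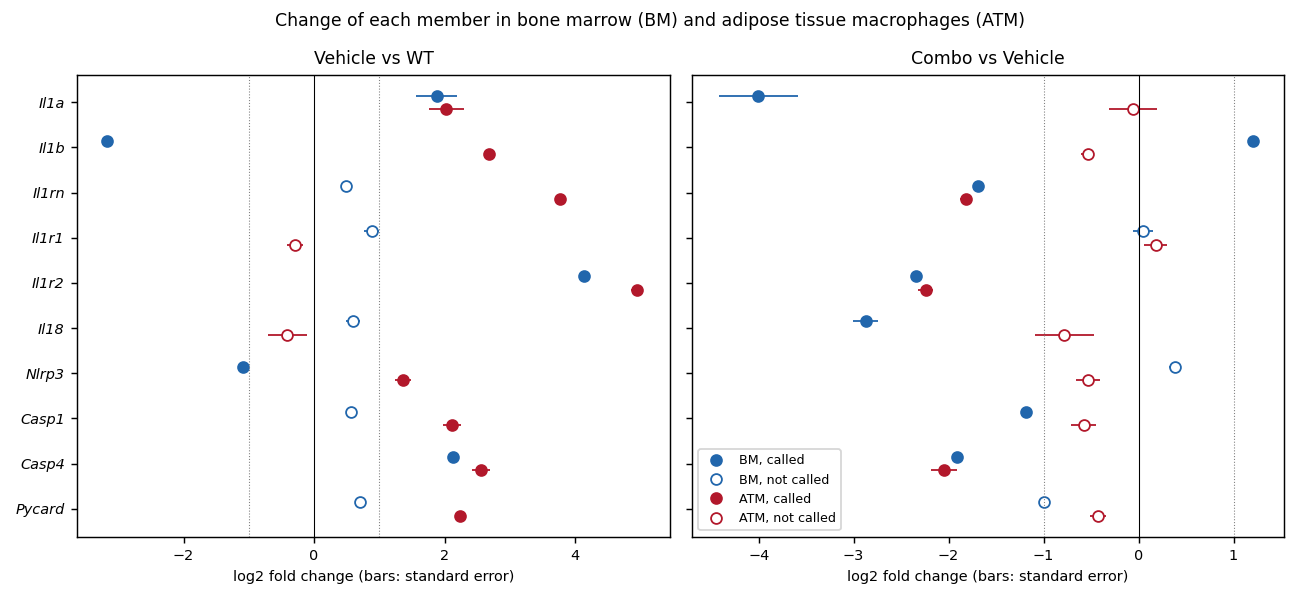
Log2 fold change of each gene with its SE in BM (blue) and ATMs (red), for Vehicle vs WT on the left and Combo vs Vehicle on the right; filled points were called and dotted lines mark the fold limit. On the left, *Il1b* lies at -3.17 in BM and at 2.68 in ATMs.

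The difference between tissues was itself tested, as the interaction of tissue and group in limma over all 30 libraries and the 13076 genes in both tables. For Vehicle vs WT, 9 of the 10 changes differed between tissues, all but that of *Il1a*, where 53.1% of all genes differed. The gap was widest for *Il1b*, at 5.86 on the log2 scale (SE 0.0944, adjusted p = 1.38e-36), and *Nlrp3*, with a gap of 2.46 (SE 0.144, adjusted p = 6.4e-18), was likewise called down in BM and up in ATMs. For Combo vs Vehicle 6 of the 10 differed, where 52.7% of all genes did. There *Il1a* fell in BM and had a log2FC of -0.06 in ATMs, a gap of 4.09 (SE 0.567, adjusted p = 8.8e-08). The tissue difference was not called for *Il1r2* (0.14), *Il1rn* (-0.08), *Casp4* (-0.10) and *Il1r1* (0.15).

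Levels of different genes were compared as RPKM, which scales for exon length and library size. In BM of WT, *Il1b* was at 76.5 ± 1.16 RPKM and its antagonist *Il1rn* at 14.8 ± 0.271 (SD, n = 3). In BM of Vehicle the order was turned, with *Il1b* at 8.49 ± 0.559 and *Il1rn* at 20.8 ± 0.455 RPKM (SD, n = 3). The decoy *Il1r2* was at 635 ± 11.4 RPKM there (SD, n = 3), the highest group mean of the 10 genes in BM. In ATMs the RPKM of *Il1b* was above that of *Il1rn* in every group, at 266 ± 15.3 against 109.8 ± 0.549 RPKM in Vehicle and 183 ± 6.96 against 31.3 ± 1.68 in Combo (SD, n = 3). That order depends on the exon length over all listed transcripts, 1907 bases for *Il1b* and 5535 for *Il1rn*. By normalized counts *Il1rn* had the higher mean in ATMs of Vehicle (20175 against 16812), GLP-1R agonist (6137 against 3462) and Anti-IL-17A (7216 against 3297). In ATMs of WT and Combo *Il1b* had the higher mean. *Il1r1* had group means of 0.561 to 2.90 RPKM in BM and 9.51 to 44.8 in ATMs.

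The wider pathway was followed in 57 other genes, listed by role. Beside the counts that follow, Vehicle vs WT called 19.5% of all genes in BM (9.44% up, 10% down). In ATMs it called 35.4% (12.5% up, 22.9% down). Combo vs Vehicle called 17.7% of all genes in BM (6.58% up, 11.1% down) and 26.4% in ATMs (14.1% up, 12.2% down). Of 7 further ligands and binding proteins, 3 were tested in BM and 4 in ATMs. In Vehicle 1 rose and 1 fell in BM, and 4 of 4 rose in ATMs. In Combo 1 rose and 2 fell in BM, and 4 of 4 fell in ATMs. *Il1f9*, the gene of IL-36γ, had the signs of *Il1b*, with 3859 ± 132 normalized counts in BM of WT, 942 ± 13.2 in Vehicle and 3871 ± 59.0 in Combo (SD, n = 3; log2FC -2.04 and 2.04). In ATMs *Il1f9* had 108 ± 29.0, 3837 ± 371 and 1372 ± 81.1 (log2FC 5.14 and -1.48). *Il18bp*, which encodes a protein that neutralizes IL-18, rose in Vehicle in BM (log2FC 3.48) and ATMs (4.61) and fell in Combo (-3.04 and -4.11). *Il33*, an alarmin of stromal cells, rose in ATMs of Vehicle (1.39) and fell in Combo in ATMs (-2.40) and in BM (-2.71, on 9 to 15 counts in Vehicle and 0 to 5 in Combo). *Il1f6*, the gene of IL-36α, had 0 counts in each ATM library of WT, 135 to 229 in Vehicle and 17 to 46 in Combo.

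Of 6 further receptors, 1 rose in BM of Vehicle, *Il1rap*, the partner of IL-1R1 (log2FC 1.04). This count became 0 without WT replicate 3 and 2 without Vehicle replicate 1. In ATMs of Vehicle *Il18rap* rose (1.21) and *Il18r1* fell (-1.37), both parts of the IL-18 receptor. These 2 of 6, beside 35.4% of all genes, became 1 without WT replicate 2, WT replicate 3, Vehicle replicate 1 or Vehicle replicate 2. In ATMs of Combo *Il18r1* (3.24) and *Il18rap* (1.32) rose. T cells carry this receptor, and 9 T cell markers summed to 1152 to 1183 CPM in ATMs of Combo and 146 to 160.1 in Vehicle, whose part was not tested. In BM of Combo *Il18r1* rose as well (1.32), where the T cell markers were at 42.5 to 46.9 CPM against 84.1 to 84.5 in Vehicle.

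The 11 genes of signaling from the IL-1 receptor had 0 calls in BM of Vehicle by edgeR and 0 by DESeq2, with a median log2FC of 0.16. The fold limit decided this. Without it all 11 passed the adjusted p by edgeR, 9 higher and 2 lower, as did 76.6% of all genes. In ATMs of Vehicle the kinases *Irak2* (2.90) and *Irak3* (2.17), the latter a brake on the pathway, rose and *Irak4* fell (-1.56). The other genes of the list were not called there, where 35.4% of all genes were. In ATMs of Combo *Irak2* (-2.23) and *Irak3* (-2.03) fell, and *Irak4* (1.02) and *Map3k7*, the gene of TAK1 (1.05), rose, a count of 4 that became 2 without Combo replicate 3. In BM of Combo the only call was *Irak4*, up (1.06).

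Sensors other than NLRP3 moved in both directions. In BM of Vehicle, 4 of 9 were called, with *Nlrp12* (-2.49) and *Nlrp1a* (-1.77) down and *Naip6* (1.35) and *Naip5* (1.12), sensors of bacterial flagellin, up. In BM of Combo *Nlrp12* (2.27) and *Nlrp1a* (1.34) rose, and *Naip5* (-1.12) was among the 2 that fell. In ATMs of Vehicle 4 of 10 were called, beside 35.4% of all genes. *Mefv*, the gene of pyrin (4.55), and *Nlrp12* (3.01) rose. *Nlrp1a* fell to 0 to 2 counts per library from 30 to 55 in WT, and *Nlrp6* to 0 from 16 to 51. Both of these dropped out, leaving 2 calls, where at least 10 counts were required in every library. In ATMs of Combo *Mefv* fell (-1.28) and *Nlrp1a* rose to 122 to 147 counts.

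Among 12 partners and effectors of the inflammasome, 10 were tested in each tissue. In Vehicle 4 rose and 0 fell in BM, and 6 rose and 1 fell in ATMs. The genes with the largest changes were interferon-induced, the guanylate-binding proteins *Gbp2* and *Gbp5*, which help caspase-11 to act, and *Trim30a*. *Gbp2* had 882 ± 57.9 normalized counts in BM of WT, 20802 ± 187 in Vehicle and 364 ± 24.3 in Combo (SD, n = 3; log2FC 4.56 and -5.84), and in ATMs 3847 ± 106, 71423 ± 2133 and 3808 ± 343 (log2FC 4.21 and -4.23). *Gbp5* rose in Vehicle (log2FC 3.47 in BM and 4.47 in ATMs) and fell in Combo (-4.92 and -4.69). *Trim30a* did the same, with 1.76 and 2.46, then -2.23 and -2.97. In Combo 5 fell and 0 rose in BM, and 4 fell and 1 rose in ATMs.

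Of 11 genes that IL-1, among other stimuli, is known to induce, 8 rose and 1 fell in BM of Vehicle, and 9 rose and 1 fell in ATMs. Their median log2FC was 2.07 in BM and 1.85 in ATMs, so in BM most of them rose while *Il1b* fell. *Ptgs2*, the gene of COX-2, was the one that fell, from 876 ± 176 to 52.3 ± 7.86 normalized counts in BM (SD, n = 3; log2FC -4.06) and from 36986 ± 883 to 9034 ± 418 in ATMs (-2.03). *Nfkbia*, the NF-kB inhibitor IκBα, rose in BM (2.07) and ATMs (2.19). In Combo, 8 fell in each tissue, and *Ptgs2* rose in BM (1.40) and fell in ATMs (-1.31). The chemokine gene *Cxcl1* fell in ATMs of Combo (-3.06), and in BM it had 0 counts in each Combo library against 15 to 42 in Vehicle.

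**Figure D4:**
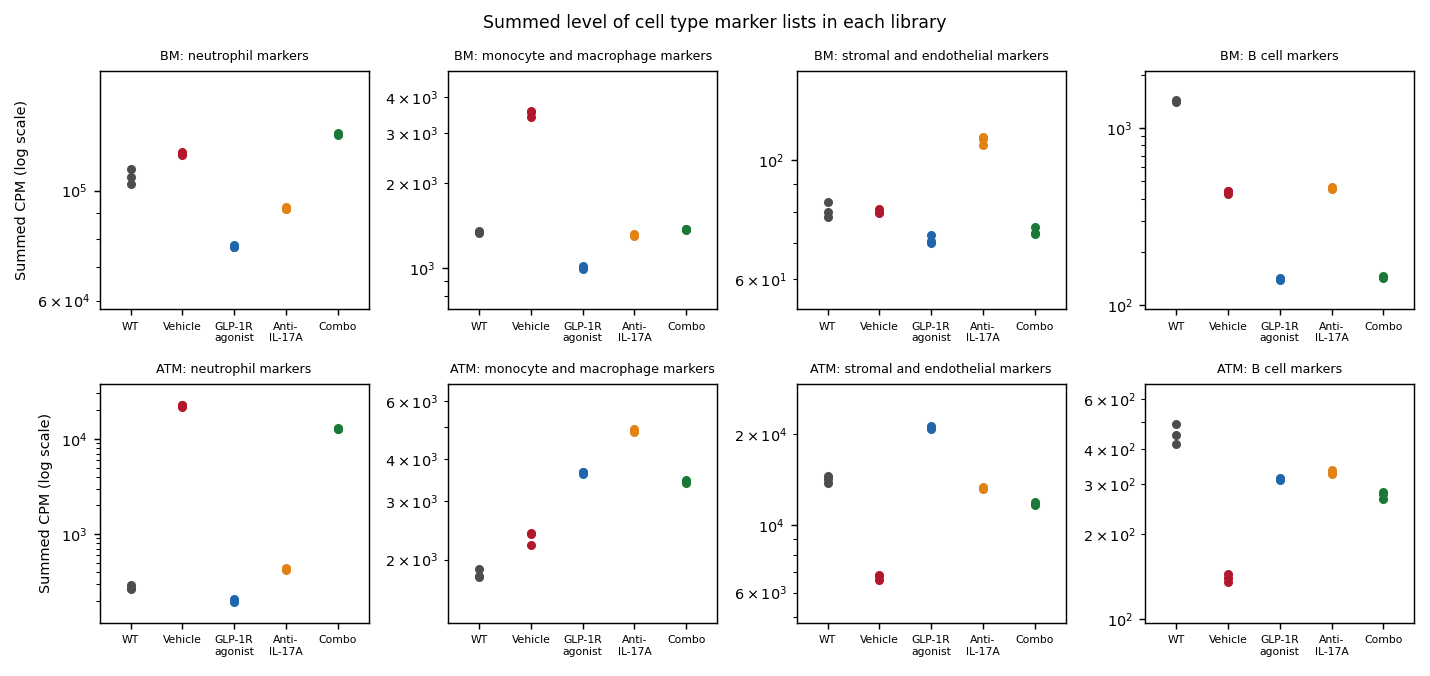
Summed CPM of cell type marker lists in each library, on a log scale, by group, in BM and ATMs; points are libraries. In ATMs the neutrophil markers are high in Vehicle (at least 21568) and Combo (at least 12554), the groups in which *Il1b* is high.

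The genes whose log2 CPM followed *Il1b* most closely over the 15 libraries were not the same ones in the 2 tissues. In BM they were *Glcci1* (Pearson r = 0.993), *Nlrp3* (0.986), *Tspyl1* (0.982), *Trpm2* (0.981) and *Serpinb10* (0.981). In ATMs they were *Trem1* (0.995), *Mmp8* (0.988), *Serpinb11* (0.988), *Fpr1* (0.988) and *Lipk* (0.987), of which *Mmp8*, a neutrophil collagenase, is among the neutrophil markers. *Il1rn* was followed most closely by *H2-T24* (0.992), *Nfkb2* (0.990), *Trim12c* (0.989), *Man2a2* (0.986) and *Cryzl1* (0.978) in BM, and by *Tpt1* (0.988), *Sema4d* (0.987), *Aqp3* (0.984), *Timp1* (0.982) and *Nek6* (0.982) in ATMs. The 15 points are 5 groups of 3, so r mostly reflects how the 5 group levels were spaced on the log2 scale, and no test was made.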

How the data were processed

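Unstranded paired-end libraries of polyA RNA from BM and ATMs were sequenced, with 3 libraries in each of 5 groups per tissue. Per the labels and the study's methods, the authors aligned reads to mm10 (GRCm38) with STAR 2.7.2a and counted them with featureCounts 2.0.1 on GENCODE genes, a read on overlapping genes counting for each. The deposited values are raw counts per gene, 1 table per tissue, and genes with few counts were already gone (lowest total 55 in BM and 54 in ATMs) by a rule not given in the sources used here. Positions and exon lengths came from GENCODE M21 (the authors used M22 of the same build) and promoters from RefSeq.

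Counts were TMM-scaled and fitted per tissue over 15 libraries in a robust quasi-likelihood model (edgeR 4.0.16, R 4.3.3, filterByExpr, two-sided tests, p adjusted over all genes). The SE was derived from the F statistic. Counts are shown scaled to the mean TMM-adjusted depth of the tissue (normalized counts). Tissue differences came from limma 3.58.1 (voom with quality weights). No fold was given against a group with at most 3 counts in each library. Scripts were tested on simulated data.

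The named genes are the 10 members, up to 3 called genes of largest change per pathway list in Vehicle vs WT and Combo vs Vehicle, and the 5 genes most correlated with *Il1b* and with *Il1rn* at a mean of at least 100 normalized counts. Others were named to complete a count, after their values were seen. Members and lists were chosen with earlier results of these data known. Alternatives were DESeq2 1.42.0, its size factors, no filter, a minimum of 10 counts in every library, no fold limit, the compared groups alone, a replicate block, edgeR for tissue differences and omission of each library.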

Additional observations from a re-analysis of the deposited data

Results flagged for a closer look

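Each result in this paragraph had a change that differed between BM and ATMs by limma's test of the difference (adjusted p under 0.05), which 53.1% of all genes passed for Vehicle vs WT and 52.7% for Combo vs Vehicle. Values are log2 changes in ATMs minus those in BM. For Vehicle vs WT the gap was 5.86 for *Il1b*, 3.29 for *Il1rn*, 2.46 for *Nlrp3*, 1.55 for *Casp1*, 1.54 for *Pycard*, 0.82 for *Il1r2* and 0.43 for *Casp4*, each higher in ATMs. It was -1.16 for *Il1r1* and -1.04 for *Il18*. For Combo vs Vehicle the gap was 4.09 for *Il1a*, 2.17 for *Il18*, 0.65 for *Casp1*, 0.60 for *Pycard*, -1.70 for *Il1b* and -0.88 for *Nlrp3*. Neutrophil markers, which were at 21568 to 22845 CPM in ATMs of Vehicle and 268 to 290.0 in ATMs of WT, were at 117833 to 119679 and 102920.1 to 110769.8 CPM in BM, and their part in these gaps was not tested.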

How the results depend on the processing

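The fold limit decided most counts of calls. Without it, calls among the 10 genes became 10 (from 5) for Vehicle vs WT, Combo vs WT and Combo vs GLP-1R agonist in BM, 8 (from 3) for Combo vs Anti-IL-17A in BM, 10 (from 5) for Anti-IL-17A vs Vehicle in ATMs, 8 (from 3) for Combo vs Vehicle and 6 (from 3) for Combo vs Anti-IL-17A in ATMs. Calls among the wider pathway became, in BM, 47 (from 20) for Vehicle vs WT, 46 (from 20) for GLP-1R agonist vs Vehicle, 44 (from 21) for Anti-IL-17A vs Vehicle, 46 (from 23) for Combo vs Vehicle, 44 (from 9) for Combo vs WT, 38 (from 8) for Combo vs GLP-1R agonist and 38 (from 4) for Combo vs Anti-IL-17A. In ATMs they became 39 (from 23) for GLP-1R agonist vs Vehicle, 28 (from 13) for Combo vs WT, 32 (from 15) for Combo vs GLP-1R agonist and 30 (from 11) for Combo vs Anti-IL-17A. With at least 10 counts in every library, Combo vs GLP-1R agonist in BM had 3 calls (from 5), since *Il1a* was not tested and *Il1r2* fell under the limit.

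Of 140 log2 fold changes of the 10 genes, 138 kept direction and side of the threshold with DESeq2 and with its size factors, and 140 without a low-count filter. The sign turned only when 1 library was left out, and only for changes near 0 that were not called. Over such omissions *Il1r1* ranged from -0.044 to 0.12 for Combo vs Vehicle and from -0.15 to 0.017 for Combo vs Anti-IL-17A in BM, with -0.0033 for the former without Vehicle replicate 2. In ATMs *Il1r1* ranged from -0.33 to 0.020 for Combo vs WT and from -0.038 to 0.31 for Combo vs Vehicle, *Il1a* from -0.16 to 0.14 for Combo vs Vehicle, and *Casp1* from -0.089 to 0.048 for Combo vs Anti-IL-17A. Counts of calls among the 10 genes moved by at most 1 over these omissions.

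Deviations of same-numbered libraries correlated only weakly, by -0.0295 to 0.0523 in BM and by -0.0225 to 0.0345 in ATMs. Libraries of other numbers had -0.0534 to 0.0436 and -0.0406 to 0.0342. Of 15 libraries, 10 in BM and 7 in ATMs correlated best with their own number. Whether the numbers mark a weak pairing was not settled by these values. With the replicate number as a block, the 10 genes had 5 calls for Vehicle vs WT in BM and 8 in ATMs, as without it, and the count changed in none of the 14 comparisons. *Il1r2* joined the tissue differences for Combo vs Vehicle under the block, which made 7 (from 6; adjusted p = 0.0382). A single batch is named for all samples. Depth limited *Il1a* in BM of Combo and the genes with 0 counts in a group.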
